A study of Homo sapiens with 14 samples.

Results

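The interferon-stimulated genes described here are 44 genes chosen by symbol from the textbook antiviral and antigen-presentation programme. All 44 had a row among the 21572 genes of the expression table, with TRIM25 in a row shared with the microRNA gene MIR3614. The cells were labelled HepG2, a human liver tumour line, and carried either a scrambled siRNA (control) or an siRNA against ADAR, the gene of the RNA-editing enzyme ADAR1 (knockdown, KD). The design held 14 libraries. For each condition there were 2 replicates of parallel analysis of RNA structure (PARS-seq), each split into an S1 and a V1 library, 2 replicates of ribosome profiling (Ribo-seq) and 1 RNA-seq library. S1 nuclease cuts single-stranded RNA and RNase V1 cuts paired RNA, so the read starts of PARS-seq report structure, and their sum also reports abundance. Both conditions were transfected with siRNA, which the labels call stable, and no interferon treatment is named. A single siRNA product stood for each condition, so loss of ADAR1 and other effects of that siRNA cannot be told apart.

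Interferon receptors activate the kinases JAK1 and TYK2, which phosphorylate STAT2 among other proteins. With IRF9 it enters a complex that binds the interferon-stimulated response element (ISRE) in promoters. The gamma-activated sequence (GAS) is another promoter element of interferon responses. ADAR1 changes adenosine to inosine in double-stranded RNA, and loss of this enzyme is known to let cellular duplexes be read as foreign by the sensor MDA5 and to raise interferon and its target genes in some cells.

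Promoter elements are shown first, for genes at least 2-fold higher in RNA-seq or called lower in PARS-seq, as examples of a sequence that many of the 44 genes hold. RefSeq promoters of 300 bases (build GRCh38.p14, 250 bases before to 50 after the start) were available for 37 of the 44 genes. An ISRE core, spelled GAAANNGAAA and searched on both strands, was present in 23 of the 37 (62.2%) and in 4.38% of the promoters of all 27305 genes. A GAS element, TTCNNNGAA on both strands, was present in 10 of 37 (27.0%) against 9.38% of all genes, and 7 genes held both. ISRE cores overlapped each other in some promoters, as in B2M and BST2, and a match is a description of letters only. In each 60-base window the capitals mark the ISRE core, in the orientation in which it lies on the gene's strand.
IFI27, chr14:94110616-94110675, plus strand: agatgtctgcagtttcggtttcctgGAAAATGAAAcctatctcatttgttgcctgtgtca
IFI6, chr1:27672273-27672332, minus strand: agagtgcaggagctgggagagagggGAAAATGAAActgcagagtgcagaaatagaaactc
IFITM1, chr11:314009-314068, plus strand: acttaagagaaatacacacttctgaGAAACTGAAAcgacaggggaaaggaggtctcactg
B2M, chr15:44711354-44711413, plus strand: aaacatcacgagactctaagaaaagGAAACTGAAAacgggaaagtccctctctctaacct
BST2, chr19:17405720-17405779, minus strand: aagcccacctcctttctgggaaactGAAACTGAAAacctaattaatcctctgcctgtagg
IFIT1, chr10:89392495-89392554, plus strand: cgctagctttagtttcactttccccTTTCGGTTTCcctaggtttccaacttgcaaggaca
IFI44, chr1:78649746-78649805, plus strand: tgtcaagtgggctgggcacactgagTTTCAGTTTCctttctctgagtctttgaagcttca
RSAD2, chr2:6877607-6877666, plus strand: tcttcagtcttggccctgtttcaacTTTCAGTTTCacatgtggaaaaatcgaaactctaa
The first 3 windows belong to IFI27, IFI6 and IFITM1, which were at least 2-fold higher in KD RNA-seq, and the last 5 to genes that fell in PARS-seq. Of the 5 genes at least 2-fold higher in RNA-seq with a promoter entry, 3 held the core, and of the 7 with an entry that fell in PARS-seq, 5 did. PARP9 and DTX3L, partners in an ADP-ribosylation and ubiquitin ligase complex, lie head to head on opposite strands of chromosome 3 and shared 1 core in the window chr3:122564307-122564366.

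The knockdown was first checked in the targeted gene. ADAR was at 40.7 and 46.8 RPKM (reads per kilobase of transcript, scaled by the authors to the number of mapped reads) in the control PARS-seq replicates and at 15.1 in both KD replicates, which is 62.9% and 67.8% lower. RNA-seq gave 54.8 in control and 15.4 in KD, 72.0% lower. Ribo-seq replicate 1 gave 43.6 and 8.73, 80.0% lower, but replicate 2 gave 55.5 and 44.0, only 20.6% lower, so the Ribo-seq libraries of replicate 2 stood apart in their knockdown. Cell markers were checked too. The 10 hepatocyte markers summed to 0.186 to 2.64 RPKM per column and none reached 1 RPKM in every column, so the cells are called HepG2 only as labelled. Leukocyte markers summed to at most 1.13 and endothelial markers to at most 0.620, while 5 fibroblast markers summed to 38.9 to 119 in control and 30.9 to 87.9 in KD columns. Only 2 of these 5, COL1A1 and COL3A1, reached 1 RPKM in every column, and COL1A2 stayed at or below 0.123. COL3A1 was in a row shared with the microRNA genes MIR1245A and MIR3606. The part of these markers in the results was not tested. In bulk samples, fewer cells of a type and less RNA per cell cannot be told apart.

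PARS-seq RPKM values are the authors' mean of the S1 and V1 library of a replicate, and 1 read was worth 1.35 times as much RPKM in KD as in control RNA-seq, 0.709 times in Ribo-seq replicate 1 and 1.38 times in replicate 2. Of the 44 genes, 33 had a mean of at least 1 RPKM in PARS-seq, 32 in Ribo-seq and 31 in RNA-seq. The 11 others in all 3 assays were CMPK2, IFI44L, MX1, MX2, SAMD9L and XAF1, which were above 0 somewhere, and HLA-B, HLA-C, PSMB8, PSMB9 and TAP1, which were listed at 0 in every column. These 5 encode class I heavy chains, immunoproteasome subunits and the peptide transporter, and lie in the major histocompatibility region of chromosome 6. There, 46 of the 57 genes from HLA-C to PSMB9 were listed at 0 (80.7%), against 12.3% of the rest of the chromosome and 5.87% of other chromosomes. RPS18, a ribosomal protein gene elsewhere on chromosome 6 that every cell uses, was also listed at 0 in every column, so a 0 here says nothing of expression.

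In RNA-seq, interferon-stimulated genes were higher in KD than in control in 28 of 31 cases (90.3%; 48.0% of all genes), with a median change of 0.61 on the log2(RPKM + 1) scale against -0.01 for all genes. Ribo-seq replicate 1 gave a median of 0.68 against -0.02, replicate 2 gave 0.19 against 0.16, and PARS-seq gave -0.24 and -0.15 in its replicates against 0.04 in each. The sign of the change therefore differed between assays. With 1 library per condition RNA-seq has no replicate check and no p-value, and the study calls the replicates of the other assays biological without saying whether they were separate cultures, so p-values cover the spread between these samples only.

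**Figure D1:**
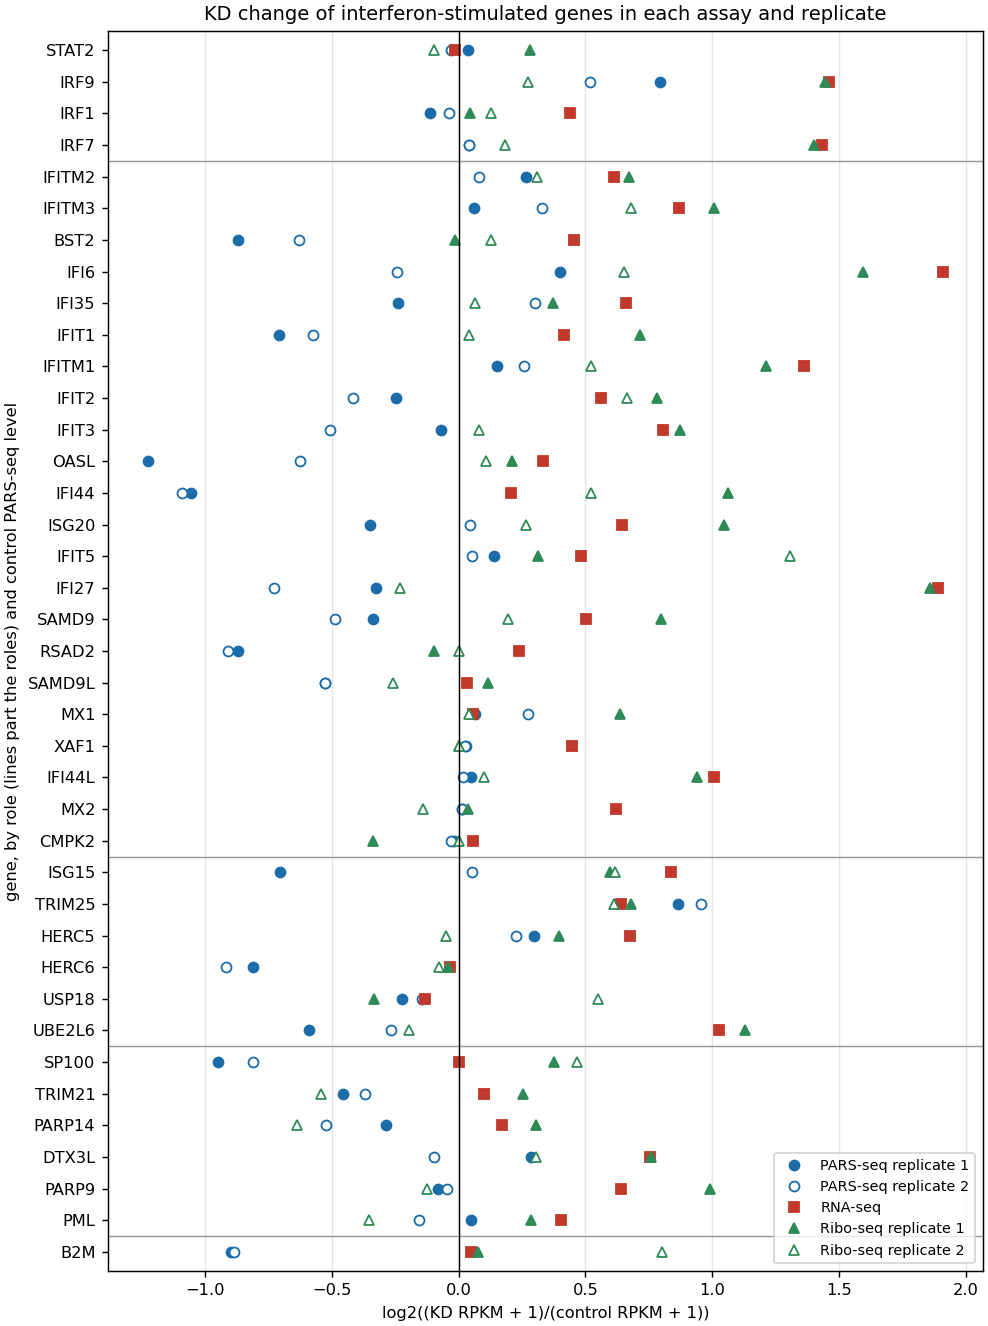
Change in KD of each interferon-stimulated gene in every assay and replicate, as log2((KD RPKM + 1)/(control RPKM + 1)) on the horizontal axis, with genes grouped by role on the vertical axis. RNA-seq and Ribo-seq replicate 1 points lie mostly right of 0, PARS-seq points mostly left, and IFI27 shows the widest gap, from 1.89 in RNA-seq to -0.73 in PARS-seq replicate 2.

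Among the 4 signalling genes, IRF9 and IRF7 had the largest RNA-seq changes. IRF9, the DNA-binding partner of STAT2, was at 13.8 RPKM in control and 39.8 in KD RNA-seq, and its PARS-seq values were 5.65 and 9.29 in control against 10.55 and 13.7 in KD. Its groups did not overlap in PARS-seq, where the change was 0.66 (SE 0.233, limma adjusted p = 0.0920). Ribo-seq gave 11.4 and 32.7 in replicate 1 and 4.12 and 5.20 in replicate 2, so every assay and replicate was higher in KD. IRF7, a transcription factor that induces interferon-alpha genes, was at 11.1 and 31.7 RPKM in control and KD RNA-seq. In PARS-seq it stood at 1.63 and 1.73 in control and 1.71 and 1.81 in KD, groups that overlapped, and Ribo-seq gave 3.29 and 10.3 in replicate 1 and 2.11 and 2.53 in replicate 2. STAT2, the partner of IRF9, had overlapping PARS-seq values of 14.8 and 19.0 in control against 15.2 and 18.6 in KD, and RNA-seq gave 8.85 and 8.76. IRF1, a transcription factor that activates antiviral genes, was at 4.00 and 5.77 RPKM in RNA-seq and between 1.82 and 2.11 in all 4 PARS-seq values.

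All 14 antiviral effectors that could be tested were higher in KD RNA-seq, with a median change of 0.63, where 48.0% of all genes were higher. Of the 31 genes tested, 6 were at least 2-fold higher in KD on the log2(RPKM + 1) scale (19.4%, against 0.813% of 10944 genes tested). On that scale 0 were at least 2-fold lower (0.914% of all genes). The 6 were IFI27, IFI6, IFITM1, IRF7, IRF9 and the ISG15-conjugating enzyme gene UBE2L6. DTX3L, at 1.66 and 3.49 RPKM, was past 2-fold in RPKM itself but not on that scale. The count was 7 at a pseudocount of 0.1 and 5 at a pseudocount of 5. IFI27, a small interferon-induced membrane protein gene, was at 16.5 RPKM in control and 63.9 in KD RNA-seq and at 20.03 and 75.3 in Ribo-seq replicate 1, but at 0.923 and 0.638 in replicate 2 and at 3.86 and 6.54 against 2.87 and 3.55 in PARS-seq. In Ribo-seq replicate 2 the KD value was 0.691 times the control value, and 1 read was worth 1.38 times as much in KD, so these low values may stand for few reads and no direction is read from them. The PARS-seq values were lower in KD in both replicates, without a call (limma adjusted p = 0.134). IFI6, which encodes a related small membrane protein, was at 96.8 and 367 RPKM in RNA-seq, 112 and 341 in Ribo-seq replicate 1 and 22.4 and 35.8 in replicate 2. Its PARS-seq groups overlapped, at 181 and 360 in control and 240 and 304 in KD. IFITM1, one of the membrane proteins that block virus entry, was at 141 and 365 RPKM in RNA-seq, 223 and 517 in Ribo-seq replicate 1, 74.7 and 108 in replicate 2, and 47.0 and 42.5 in control against 52.2 and 51.0 in KD PARS-seq, so it was higher in KD throughout. Its paralogs IFITM2 and IFITM3 were the most abundant effectors in PARS-seq, at 684 and 755 against 822 and 799 for IFITM2 and 334 and 477 against 348 and 599 for IFITM3. Only uniquely aligned reads were counted, so values of near-identical family members such as the IFITM and IFIT genes are uncertain.

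**Figure D2:**
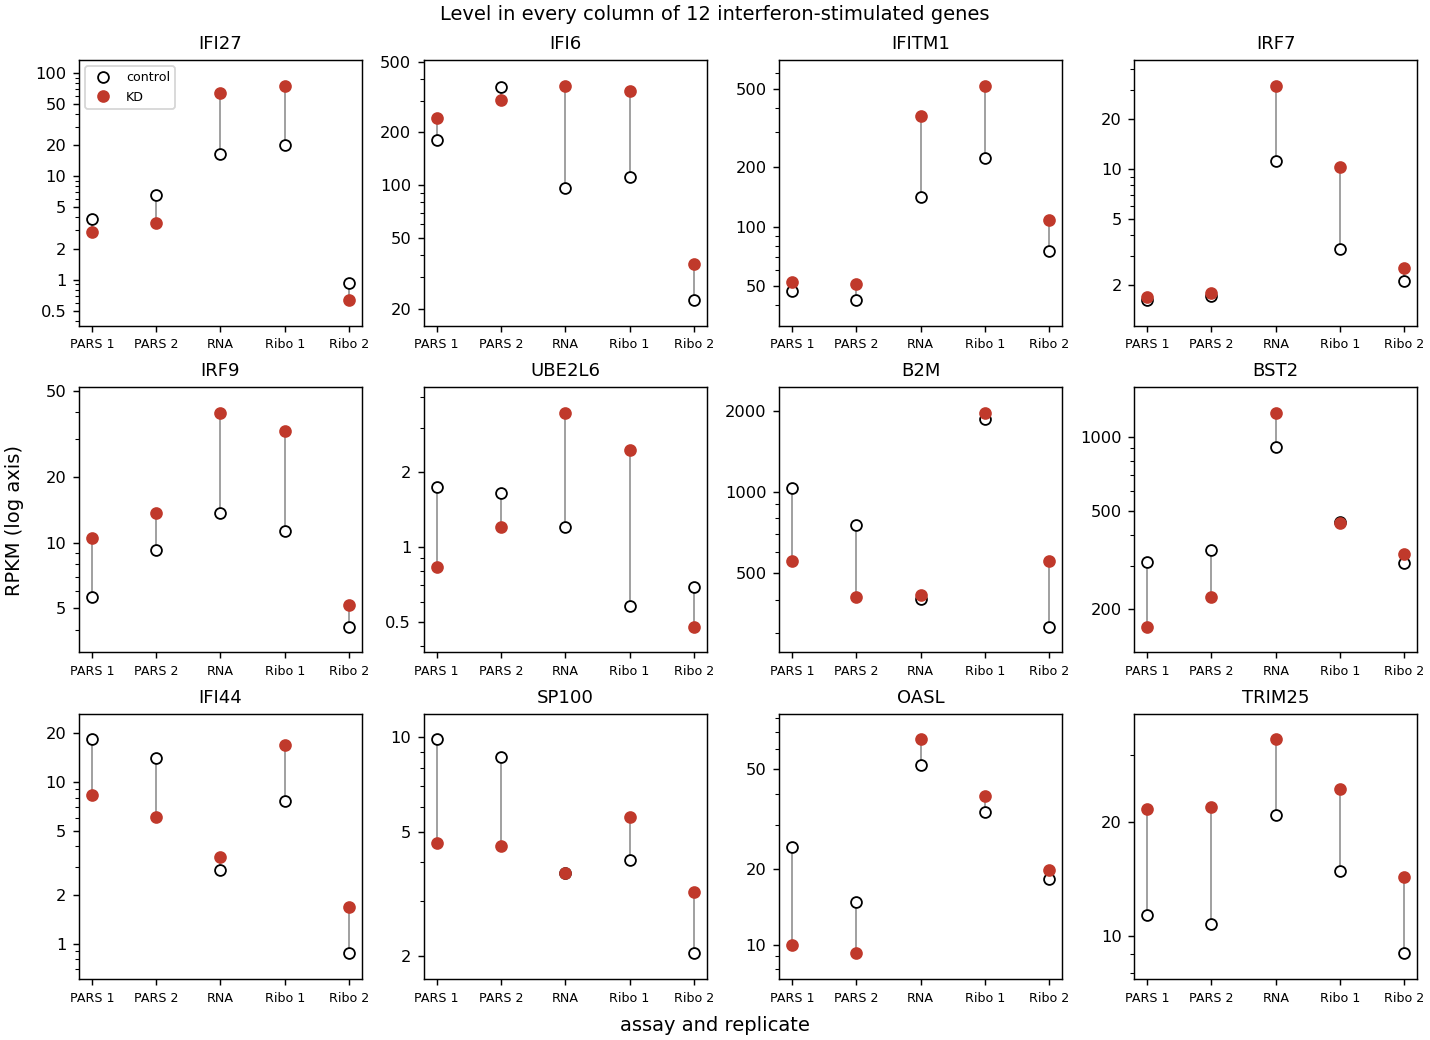
Level of 12 interferon-stimulated genes in RPKM on a log axis in every column, control and KD side by side for each assay and replicate. IRF9 was higher in KD in all 5 pairs, while B2M, BST2, IFI44, SP100 and OASL lay lower in KD in both PARS-seq replicates and TRIM25 higher.

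Ribosome footprints were higher in KD for 29 of 32 genes in replicate 1 (90.6%; 47.1% of all genes) and 23 of 32 in replicate 2 (71.9%; 61.6% of all genes), where the median was close to that of all genes. In Ribo-seq replicate 1, 9 of 32 genes were at least 2-fold higher in KD (28.1%; 2.76% of all genes were) and 0 at least 2-fold lower (3.32% of all genes), and these included all 6 genes of that size in RNA-seq together with IFI44, IFITM3 and the exonuclease gene ISG20. UBE2L6 reached the minimum there only through its KD value, at 0.576 and 2.45 RPKM, so it had to differ and supports nothing. In replicate 2, 1 of 28 was higher (3.57%; 5.16% of all genes), the RNA-binding IFIT5, at 1.19 and 4.43 RPKM, and 0 were lower (1.87% of all genes). Over both replicates limma called 0 of 32 members, as it called 0% of the 10880 genes tested higher and 0% lower. Without adjustment 0.395% of all genes and 0 members had p under 0.05. Both Ribo-seq replicates and RNA-seq were higher in KD for 20 of 31 genes (64.5%; 19.5% of all genes). The difference of the Ribo-seq and RNA-seq changes, a measure of translation efficiency, was called by limma for 0 of 31 (0% of 10140 genes in each direction). In Ribo-seq replicate 1 the change exceeded that of RNA-seq in 16 of 31 genes (50.6% of all genes), and in replicate 2 in 6 of 31 (61.8% of all genes). Replicate 2 is the one in which ADAR itself was reduced least, and whether this bears on its changes was not tested.

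In PARS-seq, 8 of the 33 genes tested fell in KD (24.2%; 7.43% of 11151 genes tested did) and 1 rose (3.03%; 8.05% did). The 8 were B2M, BST2, HERC6, IFI44, IFIT1, OASL, RSAD2 and SP100, and the gene that rose was TRIM25. B2M, the light chain of class I molecules and the only antigen-presentation gene with values, was at 1038 and 753 RPKM in control and 557 and 408 in KD, a fall of 1.85-fold on the log2(RPKM + 1) scale (log2 change -0.89, SE 0.245, limma adjusted p = 0.0451). Its groups did not overlap in PARS-seq, whereas RNA-seq gave 403 and 417, and Ribo-seq gave 1865 and 1969 in replicate 1 and 318 and 554 in replicate 2. BST2, the tether that holds budding virions on the cell, was at 312 and 349 in control and 170 and 225 in KD (log2 change -0.75, SE 0.208, limma adjusted p = 0.0460), against 912 and 1252 in RNA-seq. IFIT1, which binds RNA with foreign 5' ends, was at 51.2 and 44.0 against 30.9 and 29.2 (log2 change -0.64, SE 0.171, limma adjusted p = 0.0404), but at 12.5 and 17.0 in RNA-seq. All 3 were lower in KD in PARS-seq and higher in RNA-seq, where the B2M libraries hardly differed.
IFI44, an interferon-induced cytoplasmic protein gene, was at 18.3 and 14.1 RPKM in control and 8.29 and 6.08 in KD (log2 change -1.07, SE 0.200, limma adjusted p = 0.0120). OASL, a relative of the 2',5'-oligoadenylate synthetases without that activity, was at 24.6 and 14.8 against 9.95 and 9.25 (log2 change -0.92, SE 0.231, limma adjusted p = 0.0332). RSAD2 or viperin, which makes a chain-terminating nucleotide, was at 1.61 and 1.81 against 0.428 and 0.499 (log2 change -0.89, SE 0.118, limma adjusted p = 0.00349). Its mean of 1.09 RPKM reached the minimum only through the control values, so the minimum itself favoured a fall and the count of 8 includes 1 gene selected in this way. Without any minimum its limma adjusted p was 0.0344, and its log2 change was -1.68 with a pseudocount of 0.1 and -0.30 with 5. HERC6, a relative of the ISG15 ligase gene HERC5, was at 3.54 and 3.98 against 1.59 and 1.64 (log2 change -0.86, SE 0.133, limma adjusted p = 0.00575), with -1.17 and -0.41 at those pseudocounts. SP100, a nuclear body protein, was at 9.84 and 8.66 against 4.61 and 4.51 (log2 change -0.88, SE 0.151, limma adjusted p = 0.00895), with -0.57 at a pseudocount of 5. HERC6 gave 1.83 and 1.76 in RNA-seq and SP100 gave 3.69 and 3.70, so their RNA-seq libraries hardly differed. TRIM25, the ubiquitin ligase that activates the sensor RIG-I, rose from 11.4 and 10.8 to 21.6 and 21.9 (log2 change 0.91, SE 0.155, limma adjusted p = 0.00876), and was higher in KD in every assay, with 20.8 and 32.9 RPKM in RNA-seq. It was also the 1 member at least 1.5-fold higher in both PARS-seq replicates and RNA-seq (3.23%; 1.98% of all genes), and 0 were that much lower (2.52% of all genes).
HERC6, IFI44, SP100 and TRIM25 kept their calls when any 1 replicate was left out, which leaves 1 condition with a lone sample that is assumed to vary like the other condition. RSAD2 did not reach the minimum without control replicate 1 or 2. Its fits without a KD replicate hold both controls, through which it was selected, so they are no support. B2M lost its call without control replicate 1 (adjusted p = 0.106 by limma) or KD replicate 2 (0.209), IFIT1 without control replicate 1 (0.170), KD replicate 1 (0.0728) or KD replicate 2 (0.157), OASL without control replicate 1 (0.120) and BST2 without KD replicate 1 (0.230). Testing every gene above 0 left RSAD2 as the only gene of the 8 that was called.

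In the remaining genes of the ISG15 system no PARS-seq change passed the test. ISG15, the ubiquitin-like modifier, was at 301 and 540 RPKM in RNA-seq, 219 and 331 in Ribo-seq replicate 1 and 45.2 and 69.9 in replicate 2, but its PARS-seq groups overlapped, at 226 and 135 in control and 139 and 141 in KD. UBE2L6, its conjugating enzyme, was at 1.20 and 3.48 in RNA-seq and at 1.75 and 1.65 in control against 0.829 and 1.20 in KD PARS-seq (limma adjusted p = 0.0686). HERC5, the ISG15 ligase, was at 7.98 and 11.5 against 10.02 and 13.6 in PARS-seq, with overlapping groups. In the group of nuclear body, ADP-ribosylation and TRIM21 genes, the medians were -0.23 in PARS-seq, 0.19 in Ribo-seq and 0.29 in RNA-seq. The Ribo-seq replicates differed here, with changes of 0.25 to 0.99 in replicate 1 and -0.64 to 0.47 in replicate 2, where only SP100 and DTX3L of the 6 were higher in KD. TRIM21, a cytosolic antibody receptor, was at 6.73 and 6.71 in control and 4.63 and 4.96 in KD PARS-seq (limma adjusted p = 0.0879), where its groups did not overlap, and at 6.41 and 6.95 in RNA-seq. PARP9 and DTX3L overlap each other's annotated region on opposite strands, as CMPK2 and RSAD2 do, and the gene counting was described without a strand option, so their reads cannot be told apart where they overlap.

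The other effectors had no PARS-seq call. IFIT2 was at 34.9 and 36.6 in control against 29.2 and 27.2 in KD PARS-seq, with 8.08 and 12.4 RPKM in RNA-seq, and IFIT3 was at 28.5 and 42.3 against 27.1 and 29.4, with 17.4 and 31.2 in RNA-seq. Both belong to the same gene family as IFIT1. SAMD9, a cytoplasmic restriction factor, was at 3.63 and 3.33 against 2.67 and 2.09 in PARS-seq (limma adjusted p = 0.0929) and at 0.509 and 1.14 in RNA-seq. IFI35 overlapped in PARS-seq, at 54.5 and 42.05 against 46.0 and 52.1, and was at 36.1 and 57.7 in RNA-seq. USP18, which removes ISG15 from proteins, was 1 of 3 genes lower in KD RNA-seq, at 6.42 and 5.77, beside HERC6 and STAT2. Below the minimum level, IFI44L was at 0.125 and 1.26 RPKM in RNA-seq and 0.342 and 1.58 in Ribo-seq replicate 1, and stayed at or below 0.0724 in PARS-seq. MX1, a dynamin-like antiviral GTPase, lay between 0.431 and 0.730 in PARS-seq and was at 0.606 and 0.670 in RNA-seq.

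Lower values in both PARS-seq replicates together with a higher value in RNA-seq were found for 14 of 31 genes (45.2%; 6.82% of 10156 genes). The difference between the PARS-seq and RNA-seq changes, fitted in limma with RNA-seq libraries assumed to vary like PARS-seq replicates, was called for 0 of 31 (0% of all genes in each direction). At an unadjusted p under 0.05 it was lower in PARS-seq for 18 of 31 (58.1%; 2.46% of all genes) and higher for 0 (2.54% of all genes). This comparison was added after the opposite signs had been seen and rests on 1 RNA-seq library per condition, so the unadjusted counts restate that pattern and are no support for it. The largest such difference was that of IFI27, -2.42, with a limma adjusted p of 0.175, the smallest any gene reached. Against Ribo-seq the PARS-seq change was called for 0 of 32 (0% of 10337 genes in each direction). RPKM in PARS-seq counts fragments made by structure-specific cutting, so these values carry structure as well as abundance, and the 2 cannot be told apart here.

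**Figure D3:**
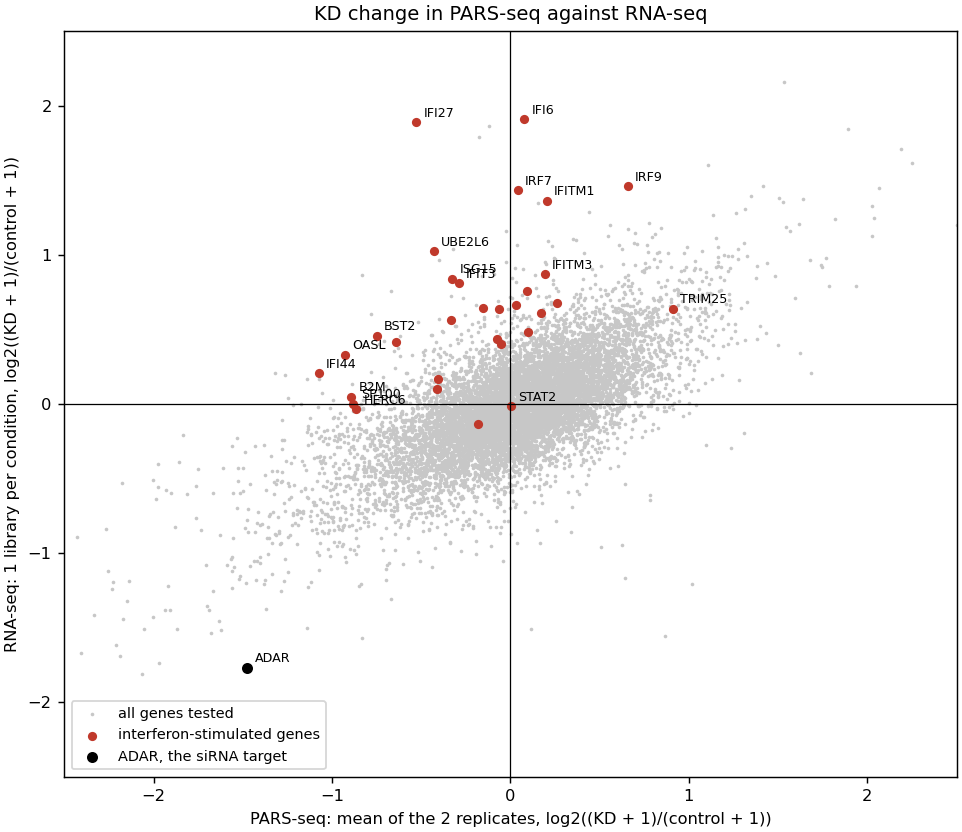
Change in KD in PARS-seq, as the mean of both replicates on the horizontal axis, against RNA-seq on the vertical axis, both as log2((KD RPKM + 1)/(control RPKM + 1)), for 10156 genes (grey) with 31 interferon-stimulated genes marked, and 12 genes outside the axes. The marked genes lie mostly above 0 in RNA-seq and left of it in PARS-seq.

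In the wider pathway, counts of called genes were small, beside 8.05% of all genes that rose and 7.43% that fell in PARS-seq. Of the 12 interferon genes listed, 8 had a row and 0 reached the minimum level, their summed RPKM staying at or below 0.644 in every column. In PARS-seq, 1 of 8 receptor and kinase genes rose, IL10RB, the shared chain of the interferon-lambda and interleukin-10 receptors, with a log2 change of 0.99 (SE 0.175, limma adjusted p = 0.00992). One further gene rose among 9 sensor adaptors, TRAF6, a ubiquitin ligase of innate signalling, with 0.58 (SE 0.147, limma adjusted p = 0.0342). Of the 8 signal transducers and regulators tested, 0 were called.

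Structure was read from 6 transcripts that the tables of read starts allow to be named: B2M, BST2, IFIT1, IFIT3, IFITM1 and STAT2. These 6 were listed by the study for a change in their paired bases, so the shares below are a description without a test. Libraries held 96618292 to 214584779 read starts, of which 26.03% to 54.7% fell on the single most covered transcript, and S1 control replicate 1 listed 4722 transcripts, which limits the S1 test to 4721. Values are read starts as RPM, scaled to a common library total, over the transcripts listed in all 8 libraries. B2M was at 766 and 482 in control and 288 and 236 in KD S1 libraries, and at 618 and 411 against 243 and 223 in V1 libraries. It fell with both enzymes (log2 change -1.22, SE 0.256, limma adjusted p = 5.43e-05 in S1, and -1.11, SE 0.348, limma adjusted p = 0.0208 in V1). BST2 was at 179 and 162 against 59.6 and 92.0 in S1 (log2 change -1.20, SE 0.261, limma adjusted p = 0.000104) and at 195 and 210 against 84.0 and 138 in V1 (limma adjusted p = 0.0639). IFIT1 was at 59.8 and 50.7 against 28.8 and 27.2 in S1 (log2 change -0.98, SE 0.298, limma adjusted p = 0.00888) and at 89.1 and 64.6 against 36.4 and 47.3 in V1 (limma adjusted p = 0.0699). In S1, 3 of 6 transcripts thus fell (18.6% of all transcripts did) and 0 rose (1.48%), and in V1, 1 of 6 fell (16.7%; 7.64%) and 0 rose (2.01%). These changes are relative to the library total, and the median of all transcripts was itself -0.36 in S1 and -0.14 in V1. Under TMM scaling, which brought the S1 median to 0.0045, the S1 changes were -0.86 for B2M, -0.84 for BST2 and -0.62 for IFIT1 (limma adjusted p = 0.0172, 0.0128 and 0.0488). The read starts and the PARS-seq RPKM come from the same libraries, so they are not independent.
IFIT3, a partner of IFIT1, was at 56.3 and 72.5 against 43.8 and 47.4 in S1, and the groups did not overlap there or in V1, although neither passed (limma adjusted p = 0.213 and 0.227). IFITM1 overlapped between groups with both enzymes, at 25.7 and 17.05 against 18.0 and 17.5 in S1. STAT2 was at 44.8 and 46.8 against 34.8 and 42.0 in S1, a change of -0.26 that turned to 0.10 under TMM scaling, and overlapped in V1. Neither transcript passed. Without KD replicate 1 the S1 calls of BST2 (adjusted p = 0.148 by limma) and IFIT1 (0.159) were lost, and without KD replicate 2 those of B2M (0.0735) and IFIT1 (0.209). The V1 call of B2M was lost without control replicate 1 (0.593) or KD replicate 2 (0.0516), with the most covered transcript left out of the total (0.0511) and with the replicate number as a block (0.0924).

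**Figure D4:**
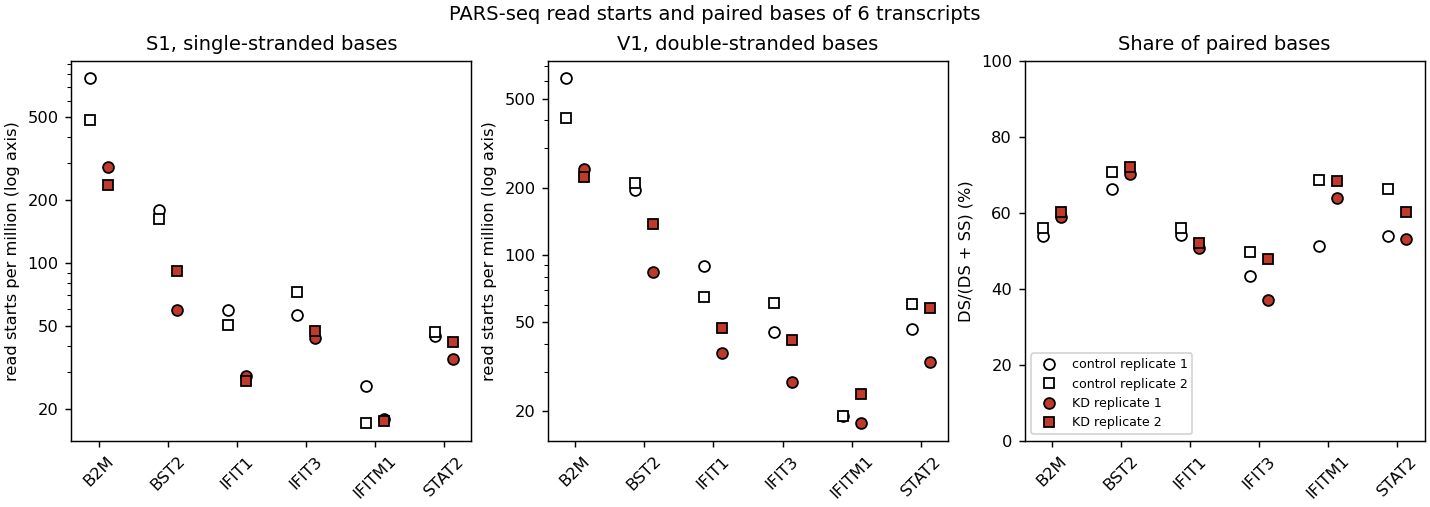
Scaled read starts (RPM) of the 6 nameable transcripts in each S1 library (single-stranded bases) and V1 library (double-stranded bases) on log axes, and the share of paired bases DS/(DS + SS) in percent, for control and KD replicates. B2M, BST2 and IFIT1 lie lower in KD in both enzymes. For BST2, IFIT3, IFITM1 and STAT2 the shares of the control replicates, as drawn, lie further apart than the change. The shares drawn use the totals of every transcript a library lists.

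A base was called paired (DS) or single-stranded (SS) where its V1 and S1 read starts differed at p under 0.05, and the share of paired bases is DS over DS plus SS. B2M had 53.9% and 56.1% paired bases in control and 58.8% and 60.2% in KD, 4.52 percentage points higher, and its groups did not overlap. With the transcript's own totals the change of B2M was 2.62 points. BST2 had 66.3% and 70.7% against 70.1% and 72.0%, with overlap. IFIT1 had 54.3% and 56.0% against 50.7% and 52.1%, a change of -3.78 points without overlap, which was -8.56 with the transcript's own totals, -7.47 with totals of the transcripts listed in all 8 libraries and 1.02 when libraries were thinned to the smallest total. The change of BST2 turned to -4.76 points when read starts were scaled by the transcript's own totals. IFIT3 had 43.3% and 49.8% against 36.9% and 47.8%, IFITM1 51.3% and 68.8% against 63.8% and 68.5%, and STAT2 53.8% and 66.3% against 53.2% and 60.3%. For these last 3, as for BST2, the control replicates lay further apart than the change. Over 4479 transcripts the median change was -1.63 points, with quartiles of -4.02 and 0.667, but the replicates differed in direction. The median share over these transcripts was 53.7% in control and 54.2% in KD of replicate 1, and 60.4% and 56.8% in replicate 2. These medians use the totals of every transcript a library lists. Totals of the transcripts listed in all 8 libraries raised the control replicate 1 share of every named transcript. Whether replicate 1 keeps its direction under those totals was not tested. Only 4.94% to 7.92% of the bases of IFIT1 could be classified, against 49.4% to 64.8% of those of B2M. Replicates of the same enzyme were compared along the 987 bases of B2M by the Pearson correlation of log2(read starts + 1). It was 0.938 in control and 0.908 in KD for S1, and 0.936 and 0.892 for V1. Between control and KD it was 0.918 for S1 and 0.933 for V1 in replicate 1, and 0.905 and 0.919 in replicate 2. Bases share a library and are not independent.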

How the data were processed

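Values came from a deposited table of RPKM per gene and from deposited tables of read starts per base of each UCSC transcript. Bowtie2 local alignment was used by the authors, against hg19 for RPKM and against the UCSC knownCanonical transcripts for the read starts, and reads with a unique position were kept. RPKM was computed by the authors over RefSeq transcripts with coverageBed, and PARS-seq RPKM is their mean of the S1 and V1 library. Versions are not given in the sources used here. The read starts are unscaled whole numbers, as deposited, and were tested as log2 sums.

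Levels were compared as log2(RPKM + 1) by limma 3.58.1 with a trended prior in R 4.3.3, over genes with a mean of at least 1 RPKM, with Benjamini-Hochberg adjustment and a threshold of 0.05. RNA-seq has 1 library per condition, so a fold of 2 was used. Read starts were tested for transcripts with at least 10 in 2 libraries, after adding 0.5. An exact permutation test of 2 against 2 samples cannot go below p = 0.333. Tests were fitted on all features, the comparisons of PARS-seq with RNA-seq and Ribo-seq were added after seeing the data, and scripts were tested on simulated data. Promoter and motif searches used RefSeq sequences with Python 3.11.15, and the bases called paired used Fisher's exact test, or a doubled binomial tail at high depth.

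Genes were named where called, at least 1.5-fold changed in both PARS-seq replicates and RNA-seq, among the 2 highest of their role, or nameable in the read start tables. IRF1, IFIT2, IFIT5, ISG20, SAMD9, IFI35, USP18, IFI44L, MX1, HERC5, PARP9, DTX3L and RPS18 lie outside that rule and were added after their values were seen. The gene members and lists were chosen with earlier results of these data known. Of other columns of per-sample values, 0 were left unused. Samples were grouped by their labels. Alternatives were the pseudocount, the minimum level, scaling, a replicate block and leaving out each replicate.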

Additional observations from a re-analysis of the deposited data

Results flagged for a closer look

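For 14 interferon-stimulated genes the KD value was lower in both PARS-seq replicates and higher in RNA-seq, so the signs of the changes were opposite. The 14 were B2M, BST2, IFI27, IFI44, IFIT1, IFIT2, IFIT3, IRF1, OASL, PARP14, PARP9, SP100, TRIM21 and UBE2L6. In RNA-seq, with 1 library per condition, the change of SP100 (3.69 and 3.70 RPKM) and B2M (403 and 417) was close to 0. The test of the difference itself, a limma interaction of assay and knockdown, passed for 0 of 31 genes after adjustment.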

How the results depend on the processing

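Depth, 2 replicates and 1 RNA-seq library per condition limit every comparison, and changes in lowly expressed genes depend on the pseudocount. In PARS-seq the 8 falls became 1 when every gene above 0 was tested, and 5 to 8 when 1 replicate was left out, with 1 to 2 rises. The replicate block gave 14 falls and 3 rises of members in PARS-seq (3129 higher and 2525 lower of all genes, against 898 and 828 without it), 0 and 0 of members in Ribo-seq (85 higher and 58 lower of all genes) and 0 falls of members in V1. The labels do not say what the replicate numbers share, and deviations of same-numbered samples correlated at 0.658 in PARS-seq, 0.811 in Ribo-seq, 0.467 in S1 and 0.363 in V1. B2M and BST2 also lost their PARS-seq call under quantile normalization. UBE2L6 fell below 2-fold in RNA-seq at a pseudocount of 5 (0.45), and the RNA-seq counts of all genes were 186 higher and 189 lower at 0.1 and 29 and 37 at 5. The PARS-seq counts of all genes were 221 and 325 without the filter.

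In Ribo-seq the members' median was -0.19 without control replicate 2 and -0.40 without KD replicate 1, in a range of -0.40 to 1.22 over the replicates left out, and that of translation efficiency was 0.35 without control replicate 1 and 0.63 without KD replicate 2, in a range of -0.82 to 0.63. In S1, leaving out 1 replicate gave 1 to 3 falls. IFITM1 was 0.12 under TMM scaling, 0.11 with the total of the most covered transcript left out and 0.058 without control replicate 1 (range -0.54 to 0.058 over the replicates left out), and STAT2 was 0.10 under both scalings. TMM gave 306 higher and 438 lower S1 transcripts, against 70 and 878. In V1, falls numbered 2 under TMM, 0 with the most covered transcript left out of the total, 4 when S1 and V1 were fitted together and 0 to 3 with 1 replicate left out, IFITM1 was -0.068 in the joint fit and -0.089 without KD replicate 2 (range -0.089 to 0.31), and STAT2 was 0.12 without KD replicate 1 (range -0.66 to 0.12). Leaving the most covered transcript out gave 897 and 898 V1 transcripts, against 345 and 1314. Of the shares of paired bases, BST2 and IFITM1 were -4.76 and -2.95 points with totals of the transcript itself, and IFIT1, IFIT3 and STAT2 were 1.02, 1.44 and 0.61 when libraries were thinned to the smallest total. The causes were not tested.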
